A study of Mus musculus with 5 samples.

Results

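The hypoxia response genes described here are 10 of the 55573 genes in the count table, taken by symbol: Hif1a, Epas1, Arnt, Egln1, Egln3, Vegfa, Ndrg1, Ddit4, Car9 and Bnip3. All 10 were found, each under 1 identifier, and all 10 had enough counts to be tested. RNA was sequenced from 3 tumours of Th-Cre:MYC mice, a genetic model of neuroblastoma driven by MYC, and from 2 normal pancreases of littermates, to set expression in the tumours against that in the normal organ. The tumour mice came from a cross of TH-Cre mice with CAG-STOPflox/flox-MYC mice, in which Cre made under the tyrosine hydroxylase promoter removes a stop and lets the CAG promoter drive MYC. The littermates are labelled Wild Type, and neither age nor sex is stated for any animal. The normal organs were perfused with RNAlater before removal, a step that the protocol describes for them and not for the tumours. The titles of tumour replicates 1 and 2 share a number that replicate 3 lacks, and whether it names 1 animal is not stated. Nothing in the labels says that the tumours came from separate animals, so p-values cover the spread among these libraries, part of which may be technical.

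Cells sense oxygen through hypoxia-inducible factors (HIF). Each is a pair of an oxygen-labile alpha subunit, HIF-1 alpha (gene Hif1a) or HIF-2 alpha (gene Epas1), and the stable partner ARNT. With oxygen present, prolyl hydroxylases of the EGLN family mark the alpha subunit, the VHL ubiquitin ligase binds it and the protein is degraded. When oxygen is short, the alpha subunit persists and the pair switches on genes for vessel growth (Vegfa), acid handling (Car9), mitophagy (Bnip3), restraint of mTORC1 (Ddit4), stress and differentiation (Ndrg1) and feedback (Egln3). Because the alpha subunits are controlled mainly as proteins, their mRNA levels do not report HIF activity.

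The pair ARNT and an alpha subunit binds a short core, ACGTG or GCGTG, in DNA. Of the 10 genes, 8 had promoters in the RefSeq table (GRCm38.p6), which holds 250 bases before to 50 bases after each gene start. Shown 5′ to 3′ on the gene's strand are those of a pair that was higher in the tumours (Egln3 and the upstream start of Vegfa) and a pair that was lower (Ddit4 and Car9), with the core on either strand in capitals.
Egln3, chr12:54203825-54204124, minus strand: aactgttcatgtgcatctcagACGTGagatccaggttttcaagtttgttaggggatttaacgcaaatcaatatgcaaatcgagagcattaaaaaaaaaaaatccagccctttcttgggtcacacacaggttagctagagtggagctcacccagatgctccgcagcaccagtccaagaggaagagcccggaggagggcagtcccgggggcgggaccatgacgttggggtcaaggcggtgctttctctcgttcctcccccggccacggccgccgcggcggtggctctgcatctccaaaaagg
Vegfa, chr17:46032328-46032627, minus strand: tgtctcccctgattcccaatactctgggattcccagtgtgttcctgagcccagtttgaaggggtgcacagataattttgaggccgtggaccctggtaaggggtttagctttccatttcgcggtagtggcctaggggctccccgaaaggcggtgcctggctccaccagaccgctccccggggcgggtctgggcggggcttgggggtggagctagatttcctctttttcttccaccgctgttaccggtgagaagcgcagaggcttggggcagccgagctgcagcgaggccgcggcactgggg
Ddit4, chr10:59951721-59952020, minus strand: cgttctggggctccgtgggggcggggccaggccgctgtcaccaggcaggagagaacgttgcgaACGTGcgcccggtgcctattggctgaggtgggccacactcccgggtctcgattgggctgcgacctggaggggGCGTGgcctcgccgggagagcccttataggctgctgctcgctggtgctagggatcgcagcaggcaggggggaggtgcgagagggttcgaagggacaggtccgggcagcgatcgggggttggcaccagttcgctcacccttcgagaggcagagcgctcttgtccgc
Car9, chr4:43506776-43507075, plus strand: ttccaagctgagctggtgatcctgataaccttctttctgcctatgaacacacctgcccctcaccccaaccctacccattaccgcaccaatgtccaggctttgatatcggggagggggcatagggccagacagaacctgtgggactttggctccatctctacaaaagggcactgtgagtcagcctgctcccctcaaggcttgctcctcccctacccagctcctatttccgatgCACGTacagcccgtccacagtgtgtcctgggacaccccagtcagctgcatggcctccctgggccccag

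These 8 genes had 9 promoters in the table, and the core stood in all but the upstream one of Vegfa. It stood in 43.8% of the 32851 promoters of that length in the table. ACGTG was in 19.6% of them, GCGTG in 32.4% and both in 8.24%. Egln3 held ACGTG at position -229, counted from the gene start. Ddit4 held ACGTG at -187 and GCGTG at -115. In Car9 the core lay on the opposite strand, read as CACGT, at -18. The upstream Vegfa window held no match, while a second Vegfa start listed inside the gene held 2. Bnip3 had 5 matches, of which a pair overlaps in the palindrome CACGTG. Genes that were higher and genes that were lower in the tumours thus both carried these letters, which are a description and not a measured binding site.

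The libraries differed in make-up before any single gene is considered. Library totals were 6611967 to 15074489 estimated counts in tumour and 48848987 and 51669489 in normal pancreas. A list of 56 acinar genes, of which 55 were found, took 0.0225% to 0.601% of the counts in tumour and 89.4% and 90.1% in normal pancreas, and the 7SL RNA pair Rn7s1 and Rn7s2 took 19.6% to 23.6% in tumour and at most 0.00109% in normal pancreas. Protein-coding counts outside the acinar list came to 4069621 to 10304253 in tumour and 4820063 and 4838884 in normal pancreas. The median log2 fold change over all genes tested was 0.38 with TMM scaling (trimmed mean of ratios between libraries), 0.51 with upper-quartile scaling, 0.62 with protein-coding counts outside the acinar list as the library size, and 3.55 with total counts only. Because a change of scaling moves all genes together, each gene below is given per library, under more than 1 scaling, by its place within its own library, and relative to the median of all genes.

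Of the 10 genes, 2 rose in the tumours (Egln3 and Vegfa), 4 were called lower (Ndrg1, Ddit4, Egln1 and the sparsely counted Car9) and 4 did not pass the test (Hif1a, Epas1, Arnt and Bnip3), by edgeR's quasi-likelihood test with TMM scaling and an adjusted p under 0.05. Car9 passed the filter on low counts through tumour replicate 3 and normal pancreas replicate 1 and rests on few reads, so its call is a description and supports nothing. Egln3 passed that filter only through the tumours, where it was high, so its call is a description too. Without normal pancreas replicate 1 the log2 fold change was 2.55 for Egln3 and 0.64 for Vegfa, and without replicate 2 it was 1.80 and 0.95. Fewer of all genes passed in these fits, and neither Egln3 nor Vegfa passed in both. In the fit of all 5 libraries 39.2% of the 16810 genes were higher and 27.8% lower in tumour, and the counts of 2 and 4 stand against that background. For 7 of the 10 genes no tumour library overlapped a normal one, against 81.0% of all genes tested. The median log2 fold change of the 10 genes was -0.32, against 0.38 for all genes. With protein-coding counts outside the acinar list as the library size, 4 rose and 4 fell, since Hif1a and Epas1 then passed as higher, beside 46.3% of all genes higher and 22.1% lower. On log2(TPM + 1) with limma 6 were higher and 2 lower, beside 63.4% of all genes higher and 6.98% lower. TPM (transcripts per 1e6) are per length and sum to the same total in each library. With total counts only, 8 were higher, 1 was lower and Car9 did not pass, but 93.3% of all genes were called higher and 2.37% lower in that fit. The 1 gene lower there was Ndrg1.

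**Figure D1:**
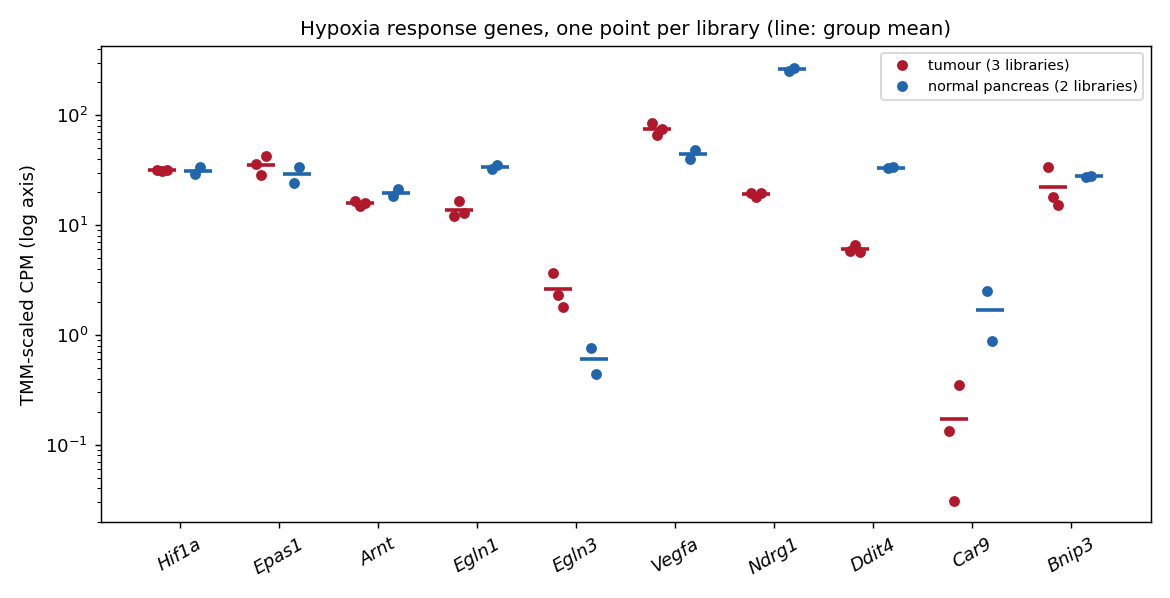
TMM-scaled CPM (counts per 1e6, log axis) of the 10 hypoxia response genes, with 1 point per library, 3 tumours left of 2 normal pancreas libraries for each gene and a line at each group's mean. Tumour and normal libraries did not overlap for 7 of the 10 genes, with Ndrg1 at 18.2 to 19.7 CPM in tumour against 255 and 271 CPM in normal pancreas.

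Neither alpha subunit gene passed the test with TMM scaling. Hif1a (ENSMUSG00000021109.13, GRCm38 chromosome 12, 73901375 to 73947530, + strand), the subunit found in most cell types, had 31.4, 30.9 and 31.8 TMM-scaled CPM in the tumour libraries, against 28.9 and 33.5 CPM in normal pancreas. The tumour values lay between those of the normal libraries. The log2 fold change was 0.01 (SE 0.13 and adjusted p = 0.962 by edgeR). Epas1 (ENSMUSG00000024140.10, chromosome 17, 86753700 to 86833410, + strand), which is abundant in endothelial cells, had 35.6, 28.4 and 42.0 CPM in the tumour libraries, against 24.0 and 33.8 CPM in normal pancreas. These groups overlapped, and the log2 fold change was 0.29 (SE 0.23 and adjusted p = 0.295 by edgeR). The summed level of 15 endothelial markers overlapped as well, at 221 to 245 CPM in tumour against 191 and 245 CPM in normal pancreas. Its part in the Epas1 level was not tested, and in whole tissue a change in cell number cannot be told apart from a change in RNA per cell.

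With protein-coding counts outside the acinar list as the library size, every tumour lay above both normal libraries for both subunits. Hif1a then had 115, 121 and 113 CPM in tumour against 79.2 and 94.0 CPM in normal pancreas (log2 0.42 with SE 0.14, adjusted p = 0.0344 by edgeR). Epas1 had 130, 111 and 149 CPM in tumour against 65.8 and 94.9 CPM in normal pancreas (log2 0.69 with SE 0.21, adjusted p = 0.0260 by edgeR). The 15 endothelial markers summed to 844, 864 and 868 CPM in tumour against 523 and 688 CPM in normal pancreas on this scale, also without overlap, and their part in the Epas1 call was not tested. Relative to the median of all genes, Hif1a lay at -0.37 to -0.20 and Epas1 at -0.10 to 0.07 over 5 count scalings. A change of library size moves a gene and that median together, so these scalings do not check the distance separately. With total counts only both were called higher, at 3.19 and 3.46. On log2(TPM + 1) Hif1a (1.15, limma adjusted p = 0.00282) and Epas1 (1.51, limma adjusted p = 0.00109) were also called higher. There they lay 0.52 and 0.89 above the median of all genes, and on log2(TPM + 0.1) 0.01 and 0.55 above it.

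The balance between the alpha subunits can be read inside each library. The ratio of Hif1a to Epas1 in TPM, which is per length, was 1.06, 1.32 and 0.738 in the tumours and 1.504 and 1.476 in normal pancreas, lower in 3 of 3 tumours. The exact two-sided permutation p was 0.2, with 0.1 the smallest that 3 against 2 libraries allow, and 0.333 after adjustment over the 5 ratios tested. In estimated counts the same ratio was 0.882, 1.09 and 0.756 in tumour and 1.205 and 0.991 in normal pancreas, and the groups overlapped. For Hif1a the mean transcript length that RSEM assigned was 3888 to 4366 bases in tumour and 3765 and 4464 bases in normal pancreas, and for Epas1 it was 4265 to 4806 bases in tumour and 5516 bases in both normal libraries, so the TPM ratio also carries the isoform estimates.

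Arnt (ENSMUSG00000015522.18, chromosome 3, 95434388 to 95497240, + strand), the common partner, had 16.4, 14.9 and 15.9 CPM in the tumour libraries, against 18.2 and 21.2 CPM in normal pancreas. Every tumour was below both normal libraries, yet the difference did not pass (log2 -0.33 with SE 0.14, adjusted p = 0.0771 by edgeR). The sign turned with the effective length of each gene as an offset (0.05), where RSEM assigned Arnt 2706 to 2951 bases in tumour and 3577 and 3655 bases in normal pancreas. It also turned with protein-coding counts outside the acinar list as the library size (0.088), and Arnt was called higher with total counts only (2.86) and on log2(TPM + 1) (1.08, limma adjusted p = 0.00273). In contrast its relative Arnt2, the form known from neural tissue, had 82, 237 and 78 estimated counts in the tumours and 2 and 1 in normal pancreas. Arnt2 passed the filter on low counts only through the tumours, so no test of it is given. In TPM, Arnt still exceeded Arnt2 in every tumour, by 14.9, 2.83 and 4.78 times. Of the third alpha subunit gene, Hif3a, there were 9, 7 and 0 estimated counts in tumour and 2 and 5 in normal pancreas, too few to test.

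With TMM scaling the hydroxylase gene Egln1 fell and Egln3 rose. Egln1 (ENSMUSG00000031987.6, chromosome 8, 124908587 to 124949324, - strand) encodes PHD2, the main oxygen sensor of the family, and had 12.1, 16.6 and 12.7 CPM in the tumour libraries, against 32.6 and 35.1 CPM in normal pancreas. The fall was 1.29 in log2 units (SE 0.18 and adjusted p = 0.000993 by edgeR). Egln3 (ENSMUSG00000035105.5, chromosome 12, 54178981 to 54203860, - strand) encodes PHD3, a hydroxylase whose gene is itself induced by HIF, and had 139, 74 and 26 estimated counts in the tumours and 10 and 6 in normal pancreas, or 3.69, 2.29 and 1.80 CPM in the tumours against 0.756 and 0.442 CPM in normal pancreas. No tumour overlapped a normal library for either gene. Egln3 passed the filter on low counts only through the tumours, where it was high, so its fitted values are a description. Its fitted log2 fold change was 2.12 (SE 0.51 and adjusted p = 0.0105 by edgeR), and 1.80 without normal pancreas replicate 2. The direction for Egln1 depended on the scaling, as it was higher with total counts only (log2 1.90) and near 0 on log2(TPM + 1) (log2 0.10).

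Set against each other within a library, the hydroxylases need no scaling. The ratio of Egln3 to Egln1 in TPM was 0.418, 0.190 and 0.195 in the tumours and 0.0309 and 0.0165 in normal pancreas. Each tumour ratio was thus above both normal ratios, with a geometric mean 11.03 times as high (log2 3.46, exact permutation p = 0.1, the smallest possible, 0.25 over the 5 ratios). Leaving out any 1 library gave log2 differences of 3.01 to 3.92. Egln1 nevertheless remained the more abundant transcript per length in every library. Egln2, which encodes PHD1, fell alongside Egln1 (log2 -1.36 with SE 0.14, adjusted p = 0.000302 by edgeR) but was higher with total counts only (1.83) and at 0.10 on log2(TPM + 1). The ratio of Egln1 to Egln2 was 0.382, 0.474 and 0.454 in tumour and 0.422 and 0.438 in normal pancreas, with overlapping groups and a log2 difference of 0.01 (exact permutation p = 1).

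**Figure D2:**
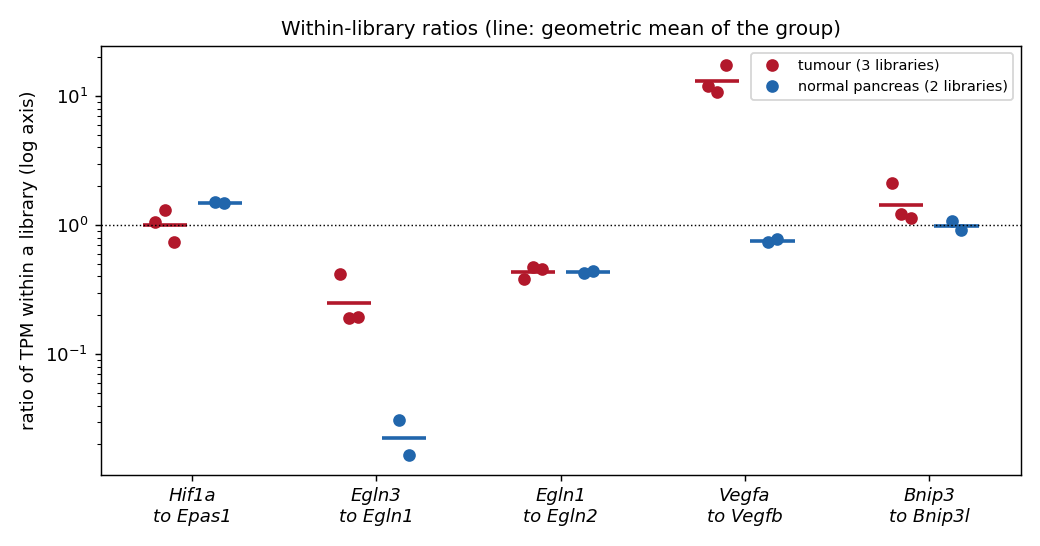
Ratios of TPM between related genes inside each library (log axis), with 3 tumours left of 2 normal pancreas libraries and a line at each group's geometric mean. Of the 5 ratios drawn, Egln3 to Egln1 and Vegfa to Vegfb had the largest log2 differences between groups, at 0.190 to 0.418 in tumour against 0.0165 and 0.0309 in normal pancreas and at 10.7 to 17.3 in tumour against 0.737 and 0.774 in normal pancreas.

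Vegfa (ENSMUSG00000023951.17, chromosome 17, 46016993 to 46032369, - strand), the growth factor that draws in blood vessels, was the most abundant of the 10 genes per length in the tumours, at 30.1 TPM ± 8.52 (SD, n = 3), and the fourth in normal pancreas, at 5.23 TPM ± 0.255 (SD, n = 2). In TMM-scaled CPM it had 85.7, 65.5 and 75.4 in the tumours and 39.6 and 48.3 in normal pancreas. All 3 tumours exceeded both normal libraries. It rose by 0.78 in log2 units (SE 0.18 and adjusted p = 0.00819 by edgeR), and did not pass without normal pancreas replicate 1 (log2 0.64, edgeR adjusted p = 0.0883). RSEM assigned Vegfa shorter transcripts in tumour, 2111 to 2397 bases against 2566 and 2811 bases in normal pancreas, and with effective length as an offset the rise was 1.08.

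Other VEGF genes moved in both directions. Vegfb, which encodes a ligand of the receptor FLT1, had 141, 96 and 29 estimated counts in the tumours and 310 and 335 in normal pancreas, or 3.75, 2.97 and 2.01 CPM in the tumours against 23.4 and 24.7 CPM in normal pancreas. Vegfb fell by 3.01 (SE 0.25 and adjusted p = 0.000133 by edgeR), but was higher by 0.17 with total counts only. The ratio of Vegfa to Vegfb in TPM was 12.1, 10.7 and 17.3 in the tumours and 0.737 and 0.774 in normal pancreas, so that Vegfa was the more abundant of this pair in every tumour and Vegfb in both normal libraries. The ratio differed 17.3-fold (log2 4.11, exact permutation p = 0.1, the smallest possible, 0.25 over the 5 ratios), and by log2 3.91 to 4.26 without any 1 library. Of 9 VEGF ligand and receptor genes other than Vegfa, 3 rose and 2 fell, beside 39.2% of all genes higher and 27.8% lower. Their median log2 fold change was 0.62, and 0.32 without normal pancreas replicate 1 and 0.64 without replicate 2. By total counts 8 were higher and none lower, beside 93.3% of all genes higher and 2.37% lower. On log2(TPM + 1) 7 were higher and 1 lower, beside 63.4% of all genes higher and 6.98% lower. Nrp2, a co-receptor of neural and lymphatic vessel guidance, rose by 3.86 (SE 0.48 and adjusted p = 0.000678 by edgeR), and Nrp1 fell by 0.86 (SE 0.18 and adjusted p = 0.00551 by edgeR), a call lost without normal pancreas replicate 2 (adjusted p = 0.0630 by edgeR) and with protein-coding counts outside the acinar list (adjusted p = 0.0612 by edgeR), and a direction that turned with total counts only (2.32) and on log2(TPM + 1) (0.46). The main receptor genes did not pass, with Kdr at log2 0.62 (SE 0.32 and adjusted p = 0.125 by edgeR) and Flt1 at 0.29 (SE 0.26 and adjusted p = 0.359 by edgeR). Of the 15 endothelial markers 8 rose and 2 fell, and their part in these values was not tested.

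Ndrg1 (ENSMUSG00000005125.13, chromosome 15, 66929318 to 66969640, - strand) had the largest fall of the 10 genes in the TMM fit. It had 740, 586 and 280 estimated counts in the tumours and 3369 and 3677 in normal pancreas, or 19.7, 18.2 and 19.4 CPM in the tumours against 255 and 271 CPM in normal pancreas. Tumour values were far below normal ones with no overlap. The fall was 3.78 in log2 units (SE 0.14 and adjusted p = 2.02e-05 by edgeR), a 13.8-fold difference, and stood at the 2.77 percentile of log2 fold changes over all genes tested. Ndrg1 was lower, and passed, in all 19 fits made, with log2 values from -3.83 to -0.60. In normal pancreas it was the most abundant of the 10 genes per length, at 29.3 TPM ± 0.396 (SD, n = 2), and in tumour it ranked 5, at 5.88 TPM ± 0.784 (SD, n = 3). Its family was split. Ndrg4, known as a neural and cardiac member, had a log2 fold change of 5.99 but was sparsely counted in normal pancreas. It passed the filter on low counts only through the tumours, so no test of it is given. Ndrg2 fell by 1.86 (SE 0.27 and adjusted p = 0.00126 by edgeR) but was higher with total counts only (1.33). Ndrg3 did not pass the test (log2 0.50 with SE 0.19, adjusted p = 0.0540 by edgeR). Ndrg3 passed as higher in 13 of the 18 other fits, among them upper-quartile scaling (log2 0.63, adjusted p = 0.0208 by edgeR) and the fits without tumour replicate 1 (0.58, adjusted p = 0.0366 by edgeR) or 2 (0.59, adjusted p = 0.0322 by edgeR).

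Ddit4 (ENSMUSG00000020108.4, chromosome 10, 59949669 to 59951834, - strand) encodes REDD1, a stress-induced protein that restrains mTORC1 through the TSC complex. It had 5.82, 6.53 and 5.68 CPM in the tumour libraries, against 32.8 and 33.6 CPM in normal pancreas. The libraries within each group lay close together and the groups were well apart. Ddit4 fell by 2.46 (SE 0.14 and adjusted p = 3.95e-05 by edgeR), a 5.51-fold difference, and passed as lower in 18 of 19 fits. By total counts it was higher (log2 0.72, adjusted p = 0.0114 by edgeR). In that fit it lay 2.83 below the median of all genes, which moves with the scaling too.

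Of 14 tested genes of the TSC and mTORC1 pathway, 3 rose and 6 fell, beside 39.2% of all genes higher and 27.8% lower. The balance turned with the scaling, to 13 higher and 1 lower with total counts only (93.3% of all genes higher) and 9 higher and 2 lower on log2(TPM + 1) (63.4% of all genes higher). Eif4ebp1, a translation repressor that mTORC1 inactivates, fell by 5.44 (SE 0.16 and adjusted p = 1.21e-05 by edgeR). Deptor, an mTOR-binding inhibitor, fell by 2.40 (SE 0.17 and adjusted p = 7.51e-05 by edgeR), and Rheb, the GTPase that activates mTORC1, by 1.44 (SE 0.17 and adjusted p = 0.000584 by edgeR). With total counts only both were higher, at 0.77 and 1.74.

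Ddit4 is also a target of the integrated stress response, whose effector is the transcription factor ATF4. In the TMM fit all 15 listed genes of that response fell, with a median log2 fold change of -3.78 against 0.38 for all genes and a background of 27.8% lower. Atf5 fell by 5.68 (SE 0.24 and adjusted p = 2.37e-05 by edgeR), Asns, which makes asparagine, by 4.28 (SE 0.18 and adjusted p = 2.37e-05 by edgeR) and Ddit3, the factor CHOP, by 3.78 (SE 0.18 and adjusted p = 2.92e-05 by edgeR). On log2(TPM + 1) 11 were lower and none higher, beside 6.98% of all genes lower and 63.4% higher. With total counts only 8 were lower and 4 higher, beside 2.37% of all genes lower and 93.3% higher. Acinar genes moved with this list, with 49 of 54 tested lower and a summed level of 87.7 to 2749 CPM in tumour against 3301245 and 3426835 CPM in normal pancreas on the TMM scale, and their part in the falls was not tested.

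**Figure D3:**
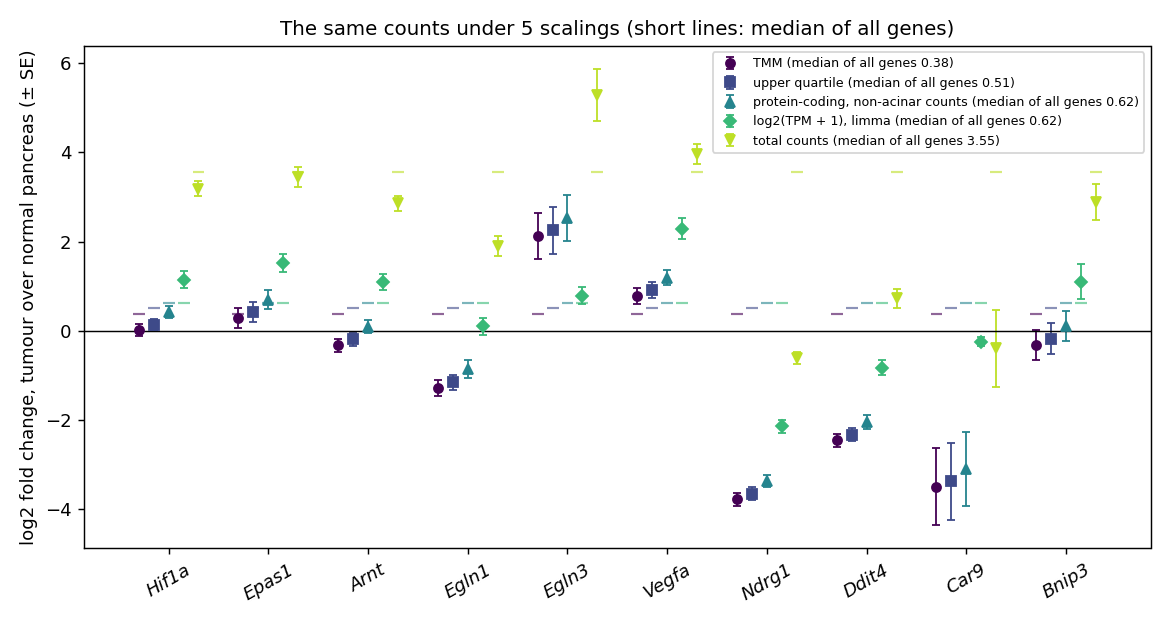
Log2 fold changes (tumour over normal pancreas, ± SE) of the 10 genes under 5 scalings of the same libraries, with a short line at the median of all genes in each. Ndrg1 stayed below 0 in all 5, Egln3 and Vegfa above 0, and total counts moved the median of all genes to 3.55.

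Car9 (ENSMUSG00000028463.14, chromosome 4, 43506966 to 43513729, + strand) encodes carbonic anhydrase IX, a membrane enzyme widely used as a mark of hypoxic tumour cells. It was barely detected, with 5, 1 and 5 estimated counts in the tumours and 33 and 12 in normal pancreas. In CPM this was 0.133, 0.0310 and 0.346 in tumour against 2.50 and 0.884 in normal pancreas, with no overlap between the groups. Car9 passed the filter on low counts through tumour replicate 3 and normal pancreas replicate 1 and rests on few reads, so its fitted values are a description. The fitted log2 fold change was -3.50 (SE 0.87 and adjusted p = 0.0115 by edgeR). The pooled ratio of tumour to normal was 0.0777, with a 95% exact binomial interval of 0.0362 to 0.153 that covers counting error only. The fitted value was -2.53 without normal pancreas replicate 1, with no call (adjusted p = 0.120 by edgeR), -4.01 without normal pancreas replicate 2 and -4.21 without tumour replicate 3. It also did not pass with total counts only or on any TPM scale. An antisense gene, Gm12454, overlaps Car9 with 30 estimated counts over all libraries, and reads of the pair cannot be told apart unless strand was used in counting, which is not stated.

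The related enzyme Car12, another HIF target of tumour cells, had 58, 14 and 9 estimated counts in the tumours and 0 in both normal libraries. It passed the filter on low counts only through the tumours, so no test of it is given. Of 15 carbonic anhydrase genes other than Car9, Car12 among them, 9 passed the filter, and 3 were called higher and 2 lower, beside 39.2% of all genes higher and 27.8% lower. That count includes Car12 and Car4, each of which passed the filter only through the group where it was high. The median log2 fold change of the genes tested was -0.15, and -0.16 without normal pancreas replicate 1 and -0.15 without replicate 2. Car4, a membrane-anchored enzyme of endothelium and ducts, had 1, 0 and 0 estimated counts in tumour and 35 and 58 in normal pancreas, and passed the filter only through the normal libraries. The mitochondrial Car5b fell (log2 -3.04 with SE 0.66, adjusted p = 0.00695 by edgeR), but was at 0.13 with total counts only.

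Bnip3 (ENSMUSG00000078566.8, chromosome 7, 138890836 to 138909519, - strand), a receptor on mitochondria that calls in autophagy, had 33.4, 17.9 and 15.2 CPM in the tumour libraries, against 27.4 and 27.9 CPM in normal pancreas. Tumour replicate 1 was above both normal libraries and the other tumours below them. The difference did not pass (log2 -0.31 with SE 0.33, adjusted p = 0.431 by edgeR), but without tumour replicate 1 it passed as lower (log2 -0.73, edgeR adjusted p = 0.00588). By total counts it was called higher (2.88, adjusted p = 0.000369 by edgeR), as also on log2(TPM + 1) (1.10, limma adjusted p = 0.0458) and on log2(TPM + 0.1) (1.205, limma adjusted p = 0.0350). With protein-coding counts outside the acinar list as the library size the value was 0.10. Its estimated counts were not whole in any of the 5 libraries, as RSEM gives where it shares reads among genes.

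The close relative Bnip3l (NIX), a mitophagy receptor of maturing red cells, fell by 0.78 (SE 0.17 and adjusted p = 0.00620 by edgeR). That call was lost with protein-coding counts outside the acinar list as the library size (log2 -0.36, edgeR adjusted p = 0.115) and without normal pancreas replicate 1 (edgeR adjusted p = 0.0531), and the sign turned with total counts only (2.41) and on log2(TPM + 1) (0.61). The ratio of Bnip3 to Bnip3l in TPM was 2.11, 1.23 and 1.14 in the tumours and 1.07 and 0.923 in normal pancreas, higher in 3 of 3 tumours (log2 0.53, exact permutation p = 0.3). Of 12 tested mitophagy genes 1 rose and 7 fell, and over all genes 39.2% were higher and 27.8% lower. The median log2 fold change of the 12 was -0.52, and -0.49 without normal pancreas replicate 1 and -0.58 without replicate 2. The smallest p values were those of Map1lc3b, the autophagosome protein LC3B, with a fall of 2.22 (SE 0.14 and adjusted p = 5.38e-05 by edgeR), of Fundc1, a hypoxia-linked receptor, with 2.14 (SE 0.15 and adjusted p = 8.05e-05 by edgeR), and of the kinase gene Pink1 with 2.04 (SE 0.17 and adjusted p = 0.000132 by edgeR). With total counts only all 12 were higher, beside 93.3% of all genes. On log2(TPM + 1) 9 were higher and 3 lower, beside 63.4% of all genes higher and 6.98% lower.

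The place of each gene among the protein-coding genes of its own library does not depend on scaling between libraries. Vegfa stood at the 98.2, 97.3 and 97.3 percentile of TPM in the tumours and at 90.1 and 91.2 in normal pancreas. Ndrg1 stood at 84.0, 82.1 and 83.6 in tumour against 98.0 and 98.2 in normal pancreas. Ddit4 stood at 70.2, 72.4 and 69.6 in tumour against 91.9 and 92.3 in normal pancreas. Egln1 stood at 69.2, 75.7 and 70.4 in tumour against 84.4 and 85.1 in normal pancreas. The sparsely counted Car9 stood at 28.8 to 37.99 in tumour against 58.4 and 49.5 in normal pancreas. On this measure 3 genes stood higher in every tumour than in both normal libraries (Epas1, Egln3 and Vegfa) and 4 lower (Egln1, Ndrg1, Ddit4 and Car9). Among 14070 protein-coding genes 73.5% had groups that did not overlap in this way, against 7 of these 10. Hif1a, Arnt and Bnip3 overlapped.

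**Figure D4:**
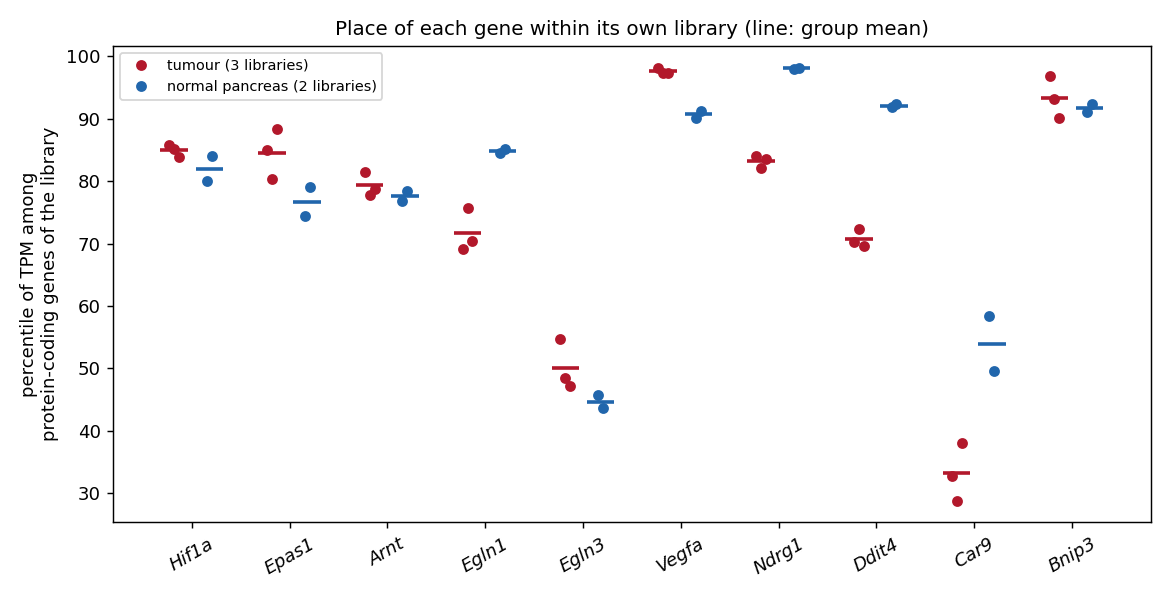
Percentile of each gene's TPM among all protein-coding genes of the same library, with 3 tumours left of 2 normal pancreas libraries and a line at each group's mean. Vegfa lay at 97.3 to 98.2 in tumour against 90.1 and 91.2 in normal pancreas, and Ndrg1 at 82.1 to 84.0 in tumour against 98.0 and 98.2 in normal pancreas.

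Per length, the order of the 10 genes differed between the tissues. In tumour it ran Vegfa, Bnip3, Hif1a, Epas1, Ndrg1, Arnt, Egln1, Ddit4, Egln3 and Car9 by mean TPM. Libraries of neighbours in that order overlapped from Vegfa to Bnip3 and from Hif1a through to Ddit4, while Egln3 (0.873 TPM ± 0.418, SD, n = 3) and Car9 (0.0700 TPM ± 0.0557, SD, n = 3) each stood below the gene before it in every library. In normal pancreas the order was Ndrg1, Ddit4, Bnip3, Vegfa, Egln1, Hif1a, Arnt, Epas1, Car9 and Egln3, with overlap only between Ddit4 and Bnip3 and between Arnt and Epas1. Egln3 was thus last there, at 0.0700 TPM ± 0.0283 (SD, n = 2).

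Of 18 tested subunits, hydroxylases, ligase parts and co-factors of the HIF machinery outside the 10 genes, 5 rose and 8 fell. Their median log2 fold change was -0.39 against 0.38 for all genes, of which 39.2% were higher and 27.8% lower. The median of the 18 was -0.35 without normal pancreas replicate 1 and -0.42 without replicate 2. Among those that rose was Arnt2, which passed the filter on low counts only through the tumours. Cited4, a competitor of HIF for its co-activators, fell by 5.98 (SE 0.26 and adjusted p = 2.37e-05 by edgeR), and its relative Cited2 by 1.78 (SE 0.13 and adjusted p = 8.39e-05 by edgeR), though Cited2 was higher with total counts only (1.40). P4htm, a prolyl hydroxylase of the endoplasmic reticulum membrane, rose by 3.18 (SE 0.28 and adjusted p = 0.000164 by edgeR). With total counts only 17 of the 18 were higher and 1 lower, beside 93.3% of all genes higher. On log2(TPM + 1) 13 were higher and 1 lower, beside 63.4% of all genes higher and 6.98% lower.

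Among known HIF targets outside the 10 genes, of 21 genes of glucose uptake and glycolysis 10 rose, 2 fell and 9 did not pass (median log2 0.64), and of 39 other tested targets 19 rose and 11 fell (median log2 0.62), beside 0.38 for all genes, with 39.2% of all genes higher and 27.8% lower. With protein-coding counts outside the acinar list as the library size, 15 glycolytic genes were higher and none lower, against 21 and none with total counts only and 16 and none on log2(TPM + 1). The other targets had 21 higher and 6 lower, 35 and none, and 28 and 4 in those fits. Over all genes 46.3%, 93.3% and 63.4% were higher and 22.1%, 2.37% and 6.98% lower in the same fits. Without normal pancreas replicate 1 the median was 0.70 for the glycolytic genes and 0.56 for the other targets, beside 0.47 for all genes. Without replicate 2 it was 0.65 and 0.81, beside 0.47 for all genes. Fewer genes of either list, and of all genes, passed in each of these fits. Eno1, the enolase of most tissues, rose by 1.25 (SE 0.14 and adjusted p = 0.000443 by edgeR). The glucose transporter gene Slc2a3 had a log2 fold change of 6.78 and Eno2, the neuronal enolase, of 4.73. Both were sparsely counted in normal pancreas and passed the filter on low counts only through the tumours, so no test of them is given. The 10 glycolytic genes that rose include both. Slc2a1, a transporter gene often read as a hypoxia mark and named here after its values were seen, had 10.3, 5.23 and 4.64 CPM in tumour against 6.80 and 6.55 CPM in normal pancreas, and did not pass (log2 0.03 with SE 0.37, adjusted p = 0.952 by edgeR). Among the other targets the chemokine receptor gene Cxcr4 had a log2 fold change of 3.997. Cxcr4 too passed the filter only through the tumours, so no test of it is given, and the 19 that rose include it and Car12. The secreted glycoprotein gene Stc2 fell by 3.25 (SE 0.17 and adjusted p = 3.22e-05 by edgeR), with no call under total counts only (log2 -0.06). Of 15 neuroendocrine markers 14 rose and none fell, and of 15 fibroblast and pericyte markers 10 rose and 2 fell. The neuroendocrine markers had a summed level of 3807 to 7420 CPM in tumour against 128 and 160 CPM in normal pancreas, and the fibroblast and pericyte markers 564 to 925 CPM in tumour against 352 and 288 CPM in normal pancreas. Snap25 was the 1 neuroendocrine marker at 0 in both normal libraries, and no fibroblast marker was at 0 in either group. Their part in these rises was not tested.

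**Figure D5:**
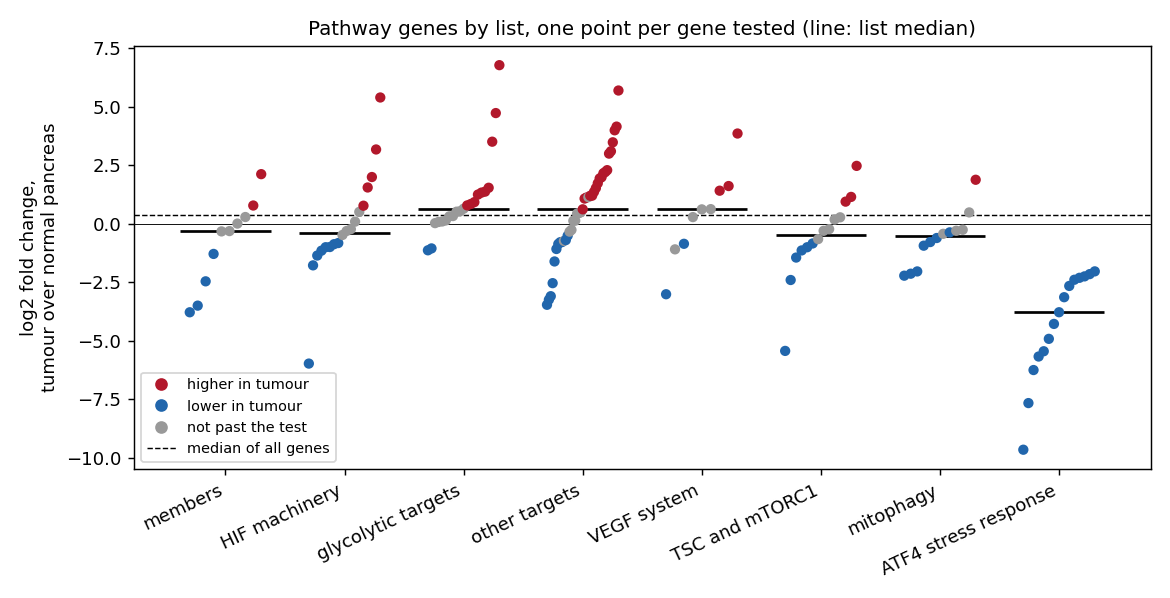
Log2 fold changes (tumour over normal pancreas, TMM scaling) of the 10 genes and of the genes tested in 7 of the lists, with 1 point per gene coloured by its call, a line at the list's median and a dashed line at the median of all genes (0.38). The 1 gene at 0 counts in a group, Car12, is drawn at its lower bound against a floor of 3 counts, and all 15 genes of the ATF4 stress response lie below 0.

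The protein-coding genes whose levels over the 5 libraries lay nearest to a member's were sought by the distance between centred log2 CPM values among 14070 genes. Nearest to Hif1a were Ythdf3, Wdr48 and Sp3, at distances of 0.0680 to 0.0740 on the log2 scale. Vegfa lay nearest to Ncor1, Zfp84 and Ascc3, at 0.1002 to 0.117. For Ndrg1 they were Ppard, Rnh1 and Vps37b, at 0.205 to 0.223. Each distance rests on 5 libraries in 2 groups.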

How the data were processed

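The submitters' processing notes name Trim Galore 0.60, STAR 2.7, RSEM 1.31 and the builds mm10 and GRCm38. Annotation release and counting strand are not stated. The authors deposited RSEM estimated counts (expected counts) per gene and TPM values, and per-library files with effective lengths. The merged and per-library values were identical. The 92 spike-in rows, all at 0, were left out.

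Estimated counts were rounded and tested with edgeR 4.0.16 (R 4.3.3; quasi-likelihood test, TMM, filterByExpr defaults, Benjamini-Hochberg adjustment over 16810 genes). Each SE was taken as the size of the log2 fold change over the root of its F. Positive values mean higher in tumour. DESeq2 1.42.0 and limma 3.58.1, on log2(TPM + 1) and log2(TPM + 0.1), were alternatives. Within-library ratios were compared by an exact two-sided permutation test over libraries (10 splits). Replicate pairs all differed beyond sampling noise (chi-square per degree of freedom 28.4 to 64.7).

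The 10 genes and all lists were chosen with earlier results of these data known. The text names the 10 genes, up to 3 genes with the smallest p in each pathway list, and the ratio partners, and 1 gene that this rule names is not reported here. Other genes named (Hif3a, Kdr, Flt1, Slc2a1) were chosen after their values were seen. Duct, macrophage and red cell marker lists were summed too. Duct markers came to 167 to 282 CPM in tumour and 825 and 834 CPM in normal pancreas (of 11, 3 rose and 6 fell). Macrophage markers came to 135 to 245 CPM in tumour and 107 and 211 CPM in normal pancreas (of 15, 1 rose and 1 fell). Red cell markers came to 200 to 594 CPM in tumour and 13.2 and 30.1 CPM in normal pancreas (all 6 tested rose). In the same fit 39.2% of all genes were higher and 27.8% lower. Coordinates are from GENCODE M21 (GRCm38), which holds 55180 of the 55573 gene identifiers, version included. Without molecular identifiers reads are not independent molecules, and the intervals hold counting error alone.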

Additional observations from a re-analysis of the deposited data

How the results depend on the processing

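In all, 18 other fits were made, and the scaling turned the direction of 4 of the 10 genes. With total counts only, calls over all genes were 15681 higher and 398 lower, against 6587 and 4669 with TMM. Of the 10 genes 8 were then higher and 1 lower, and of the 138 tested genes in the pathway lists 118 higher and 11 lower, against 44 and 53. The log2 fold changes that turned positive were those of Arnt (2.86), Egln1 (1.90), Ddit4 (0.72), Bnip3 (2.88), Bnip3l (2.41), Car5b (0.13), Cited2 (1.40), Deptor (0.77), Egln2 (1.83), Fundc1 (1.04), Map1lc3b (0.97), Ndrg2 (1.33), Nrp1 (2.32), Pink1 (1.15), Rheb (1.74) and Vegfb (0.17). With protein-coding counts outside the acinar list, 4 of the 10 genes were higher, and Arnt (0.088) and Bnip3 (0.10) turned. The effective length offset turned Arnt (0.049). On log2(TPM + 1), calls over all genes were 10665 higher and 1173 lower, those of the 10 genes 6 and 2, and those of the lists 85 and 24. Arnt (1.08), Egln1 (0.10), Bnip3 (1.10), Bnip3l (0.61), Egln2 (0.10) and Nrp1 (0.46) turned, with the same values where no filter was set. Without that filter the calls were 10223 and 1347, then 5 and 2, then 69 and 22. On log2(TPM + 0.1) they were 11558 and 1192, then 6 and 2, then 90 and 24, with Arnt at 1.42, Egln1 at 0.12, Bnip3 at 1.205, Bnip3l at 0.68, Egln2 at 0.11 and Nrp1 at 0.57. The cause was not tested. Leaving out 1 library gave 1 to 2 of the 10 genes higher, 28 to 44 of the list genes higher (28 without normal pancreas replicate 1 and 29 without replicate 2) and a log2 fold change of -0.10 to 0.14 for Hif1a. The log2 difference in the ratio of Egln1 to Egln2 was then -0.048 to 0.11. With the replicate block, 6193 genes were higher and 4241 lower, and the counts of 2 and 4 among the 10 genes did not change. The numbers are not stated to pair the samples. Sparse counts limit Car9, Egln3, Car12 and Car4, and sparse counts in normal pancreas limit Arnt2, Slc2a3, Eno2, Cxcr4 and Ndrg4.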
